A study of Equus caballus with 31 samples.

Results

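Lysosomal enzymes, lysosomal membrane proteins and their regulators were compared between horses with spontaneous osteoarthritis (OA) and healthy horses, in the cells of their synovial fluid and, separately, in their peripheral blood mononuclear cells (PBMC). The set comprised 41 gene symbols, and a row was taken where its symbol matched. Of these, 39 were present in both tables, among 17538 genes in the fluid table and 17410 in the blood table. CTSH and CD63 matched no row in either table and were not analysed here. The 39 genes comprised 10 lysosomal proteases, 13 enzymes that break down sugar chains, 7 lipid enzymes and lipid-binding proteins, 6 membrane proteins, and 3 regulators (TFEB, MITF and progranulin, GRN).

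Lysosomes are acidic compartments in which proteases, glycosidases, sulfatases and lipases degrade material taken up by the cell or delivered by autophagy. A proton pump acidifies the lumen, mannose 6-phosphate receptors deliver many of the enzymes, and transcription factors of the MiT/TFE family induce their genes. Macrophages are rich in lysosomes, and in the joint they clear matrix fragments and dead cells; some of these hydrolases degrade the glycosaminoglycans of cartilage and synovial fluid.

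The 4 groups were fluid cells of 5 OA and 11 healthy horses and PBMC of 6 OA and 9 healthy horses, with 13 horses giving both samples. All were wild type; disease status rested on a lameness workup with joint radiography and diagnostic analgesia, and horses given medication or joint injections shortly before were left out by the study. Fluid cells were pelleted after hyaluronidase digestion and, like PBMC, were sequenced as a mixture, so that fewer cells of a type and less RNA per cell cannot be told apart. The joint, age, sex and sequencing batch are not given in the labels, and a batch that follows disease cannot be told apart from it. Horses are named as in the titles, OA for diseased and ORC for healthy animals.

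Fluid libraries held 25.9 to 36.3 M reads. OA blood libraries, at 31.7 to 34.8 M, were deeper than most of the healthy ones, at 23.9 to 32.2 M. Values are normalized reads per gene, scaled within each tissue and not divided by gene length, so levels were compared neither between genes nor between tissues. Of the marker lists for cell types, the T cell list had 13 of 14 genes called lower in OA fluid, against 13.6% of all genes. Its summed level did not overlap (8407 to 37498 normalized reads in OA, 38030 to 139523 in healthy fluid). Of the stromal markers 3 of 13 (23.1%) were called higher in OA fluid, against 14.4% of all genes. With an unadjusted p below 0.05 (limma), 12 of the 13 were higher, against 3111 of the 13885 genes tested. Their median log2 change was 3.54. The median stromal sum was 276926 normalized reads in OA against 10229 in healthy fluid. OA_9570 stood apart, with a stromal sum of 1873 against 160691 to 732024 in the other OA fluids, and ORC_188 had the highest healthy sum, 150100. The part of stromal cells in the fluid changes of the set was not tested. The myeloid lists are given with the results by horse.

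Across the whole set, HGSNAT and ARSB were the genes that rose in OA in both tissues. HGSNAT, the membrane acetyltransferase of heparan sulfate breakdown, rose by 0.90 (log2) in fluid and 0.83 in blood; ARSB, the sulfatase that acts on dermatan and chondroitin sulfate, rose by 0.84 and 0.83. In fluid no other gene of the set passed the test. In blood 8 more did: the proteases CTSB and TPP1, the glycosidases HEXA and GUSB, the sphingolipid cofactor precursor PSAP, the membrane proteins LAMP2 and SCARB2, and MITF.

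In fluid 2 of the 38 genes tested (5.26%) were called higher by limma at an adjusted p below 0.05, against 14.4% of all genes tested in that tissue. None was called lower, against 13.6% of all genes. At an unadjusted p below 0.05 (limma), 6 of the 38 were higher and 0 lower, against 3111 and 2679 of the 13885 genes tested. The median log2 change was 0.54, against 0.08 over all genes, and 35 of 38 estimates were above 0. In blood 10 of 37 (27.0%) were called higher, against 3.2% of all genes, and none lower, against 2.2%. With an unadjusted p below 0.05 (limma), 22 of the 37 were higher and 0 lower, against 1813 and 1460 of the 13072 genes tested. The blood median was 0.40, against 0.02 over all genes, with 35 of 37 estimates above 0. edgeR and DESeq2 on the recovered reads also called no gene of the set lower in either tissue, and called 3 and 4 higher in fluid and 10 and 13 in blood. Of all genes they called 14.0% and 18.1% higher in fluid and 3.9% and 7.2% in blood. The plot of changes by role shows that the interval was wider in fluid than in blood for 37 of the 37 genes tested in both.

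**Figure D1:**
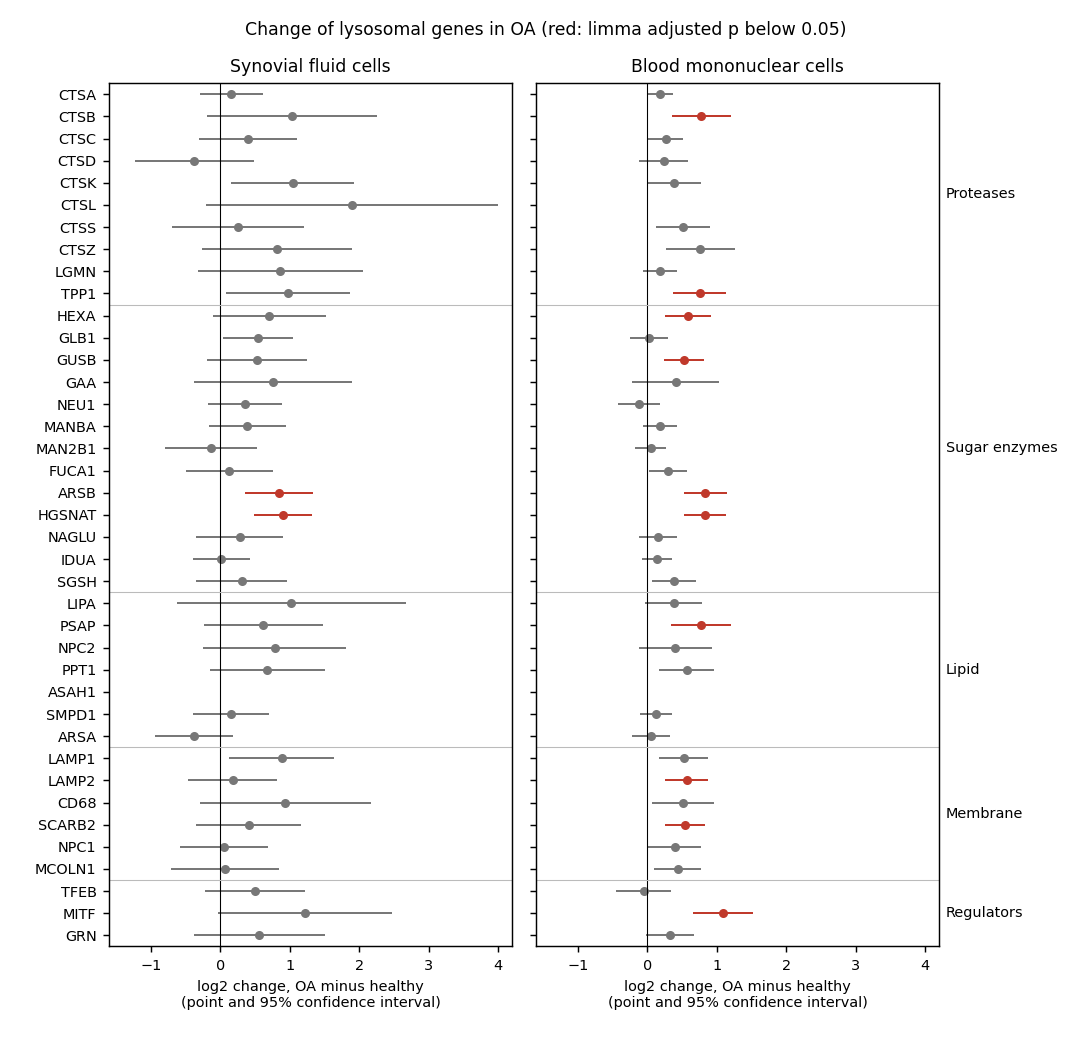
Change of each lysosomal gene between OA and healthy horses in synovial fluid cells (left) and blood mononuclear cells (right), on the log2(value + 1) scale; points are limma estimates, bars are 95% confidence intervals and red marks an adjusted p below 0.05. HGSNAT and ARSB are red in both panels, and 8 further genes are red in blood; genes without a point were below the level filter.

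Among the sugar-chain enzymes, HGSNAT separated the groups completely in both tissues. In fluid the 5 OA horses had 2728 (OA_1038), 3606 (OA_2615), 3569 (OA_3850), 2424 (OA_9350) and 2931 (OA_9570) normalized reads, and the 11 healthy horses had 861 to 2222 with a median of 1745. Every OA fluid was above every healthy fluid, which held for 1 of the 38 genes of the set and for 1.57% of all genes tested. The change was 0.90 ± 0.19 (SE, log2; means 3052 ± 521 and 1662 ± 387, SD, n = 5 and 11; adjusted p = 0.00362, limma). In blood the 6 OA horses had 1588 to 2429 normalized reads (median 2003) and the 9 healthy horses 928 to 1477 (median 1108), again without overlap. The blood change was 0.83 ± 0.14 (SE, log2; adjusted p = 0.012, limma). HGSNAT lies on chromosome 27, 2446559 to 2477155 (EquCab3.0, protein coding; ENSECAG00000019625), where its annotated span overlaps that of INTS10, a subunit of the Integrator complex. INTS10 did not rise with it: it was called lower in fluid, at -0.80 (adjusted p = 0.0135, limma), and its change was -0.03 in blood (adjusted p = 0.918, limma).

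ARSB had 1899 (OA_1038), 3066 (OA_2615), 2338 (OA_3850), 1854 (OA_9350) and 2146 (OA_9570) normalized reads in OA fluid and 695 to 2391 (median 1223) in healthy fluid. The groups overlapped through a single healthy horse, ORC_188. The next highest healthy value was 1596, below every OA value. The change was 0.84 ± 0.23 (SE, log2; means 2260 ± 491 and 1304 ± 456, SD, n = 5 and 11; adjusted p = 0.0126, limma). In blood ARSB ran from 2000 to 3629 normalized reads in OA (median 2426) and from 966 to 1870 in healthy horses (median 1364), with no overlap and a change of 0.83 ± 0.14 (SE, log2; adjusted p = 0.012, limma). ARSB lies on chromosome 14, 87023516 to 87188663 (EquCab3.0, protein coding; ENSECAG00000020847), with no other gene of the table over its span. ARSB and HGSNAT stayed past the threshold in all 24 alternative fits of fluid and all 22 of blood, the leave-one-out fits included; the highest adjusted p among them was 0.0479 for ARSB in fluid, 0.0146 for HGSNAT in fluid and 0.0431 for each in blood.

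**Figure D2:**
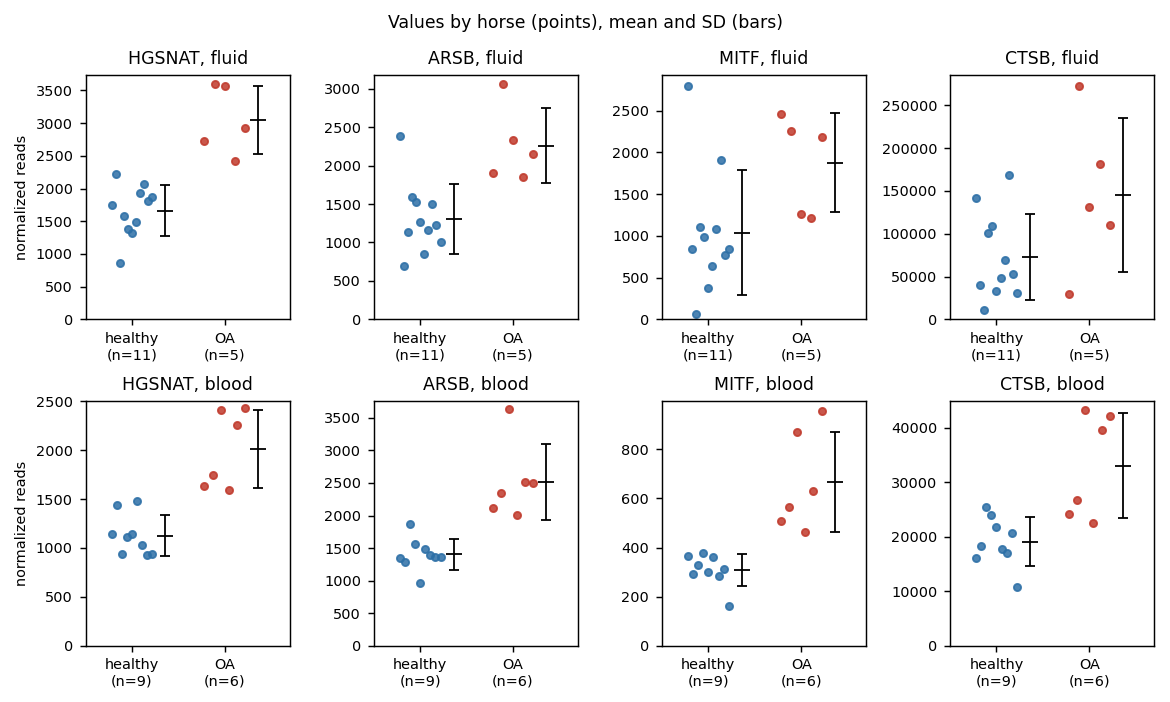
Normalized reads of HGSNAT, ARSB, MITF and CTSB in each horse (points), with the group mean and SD beside them, in fluid (top) and blood (bottom); axes start at 0. HGSNAT separates the groups in both tissues, ARSB and MITF in blood, and CTSB in neither.

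GUSB and HEXA rose in blood as well. GUSB, beta-glucuronidase, had 3874 to 7372 normalized reads in OA blood (median 5651) and 3180 to 4606 in healthy blood (median 3644), with 4 of 6 OA horses above every healthy one (0.52 ± 0.13 SE, log2; adjusted p = 0.0321, limma). HEXA, the alpha subunit of beta-hexosaminidase, had 2281 to 3823 (median 2457) against 1328 to 2323 (median 1901), with 5 of 6 OA horses above every healthy one (0.59 ± 0.15 SE, log2; adjusted p = 0.0349, limma). In fluid the log2 estimates of GUSB and HEXA were similar in size at 0.53 and 0.70, but the groups overlapped widely and the adjusted p was 0.243 and 0.171 (limma). The mannosidase MAN2B1, which collected the most reads of the uncalled sugar enzymes (not corrected for length), was not called: in fluid OA horses had 18300 (OA_1038), 61175 (OA_2615), 26098 (OA_3850), 41786 (OA_9350) and 53820 (OA_9570) normalized reads and healthy horses 24413 to 91148 (log2 change -0.14, 95% interval -0.79 to 0.51). In blood its change was 0.04, with the narrower interval of -0.16 to 0.25.

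SGSH, NAGLU and IDUA, further enzymes of heparan sulfate breakdown in the set, were not called in either tissue. IDS, outside the set, was called in both and is given with the other hydrolases. SGSH, NAGLU and IDUA had log2 changes of 0.31, 0.28 and 0.01 in fluid and 0.38, 0.15 and 0.14 in blood (adjusted p of 0.467, 0.489 and 0.968 in fluid and 0.113, 0.449 and 0.348 in blood, limma). GLB1 (beta-galactosidase) was at 0.54 in fluid (adjusted p = 0.0863, limma) and 0.02 in blood. GAA, the acid alpha-glucosidase of glycogen breakdown, was at 0.76 and 0.41, with adjusted p = 0.289 and 0.381 (limma). The remaining sugar enzymes, NEU1, MANBA and FUCA1, ranged from 0.13 to 0.39 in fluid and from -0.12 to 0.30 in blood.

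Of the proteases, none was called in fluid (0 of 10, against 14.4% of all genes called higher and 13.6% lower). CTSK and TPP1, 2 of the 10, were higher with an unadjusted p below 0.05 (limma), against 3111 of the 13885 genes tested. In blood 2 of 9 (22.2%) were called, both higher, against 3.2% of all genes. CTSB, a cysteine cathepsin that collected the most reads of the proteases in fluid (not corrected for length), had 29976 (OA_1038), 272847 (OA_2615), 131167 (OA_3850), 181303 (OA_9350) and 110013 (OA_9570) normalized reads in OA fluid. Healthy fluids ran from 10851 (ORC_196) to 168435 (ORC_205), median 53258, and held 1 OA value below their median. The log2 change was 1.03 ± 0.57 (SE; adjusted p = 0.184, limma), with an interval of -0.18 to 2.24. In blood, where horses varied less, CTSB had 22451 to 43295 normalized reads in OA (median 33129) and 10710 to 25512 in healthy horses (median 18330). The smaller blood change of 0.78 ± 0.20 (SE, log2) passed the test (adjusted p = 0.0344, limma), with 4 of 6 OA horses above every healthy one.

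TPP1, tripeptidyl peptidase, had 1934 to 3634 normalized reads in OA blood (median 2836) and 1038.3 to 2232 in healthy blood (median 1710), with 5 of 6 OA horses above every healthy one and OA_1038 within the healthy range. Its change was 0.75 ± 0.18 (SE, log2; adjusted p = 0.0283, limma). In fluid TPP1 was at 0.97 ± 0.42 (SE, log2; adjusted p = 0.0862, limma), with 1722 (OA_1038), 10500 (OA_2615), 4592 (OA_3850), 14430 (OA_9350) and 2542 (OA_9570) normalized reads against 1560 to 6212; OA_2615 and OA_9350 were above every healthy horse and the other OA fluids within their range. edgeR (adjusted p = 0.029) and DESeq2 (adjusted p = 0.0086) called it in fluid. CTSK, the collagen-degrading cathepsin, was at 1.04 ± 0.42 in fluid (SE, log2; adjusted p = 0.0686, limma). It passed the test without OA_9570 (adjusted p = 0.0087, limma), and by DESeq2 with all horses (adjusted p = 0.0229). OA_9570, the OA fluid with the lowest stromal marker sum (1873 normalized reads), had 647 normalized reads of CTSK against 1682 to 4827 in the other OA fluids. The part of stromal cells in the CTSK change was not tested.

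CTSS, a cathepsin of antigen-presenting cells, had 25609 to 42451 normalized reads in OA blood (median 33706) and 14468 to 36290 in healthy blood (median 23172). Of the blood proteases not past the threshold it collected the most reads (0.51 ± 0.18 SE, log2; adjusted p = 0.0938, limma), and 2 of 6 OA horses exceeded every healthy one. CTSZ was at 0.76 in blood (adjusted p = 0.061, limma) and 0.82 in fluid. CTSD, the main aspartic protease, was the protease with a negative estimate in fluid (-0.37, adjusted p = 0.503, limma) and was at 0.23 in blood. CTSL was scarce: 44.0 to 1339 normalized reads in OA fluid, 9.71 to 560 in healthy fluid (log2 change 1.89, 95% interval -0.20 to 3.99), and 0 to 13.2 in blood, below the level filter. CTSA, CTSC and LGMN, an asparaginyl endopeptidase, had blood changes of 0.18, 0.26 and 0.18 and fluid changes of 0.16, 0.40 and 0.87, none of them past the threshold.

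Among the lipid genes PSAP alone was called, in blood (1 of 6, 16.7%, against 3.2% of all genes called higher). In fluid 0 of 6 were called by limma, edgeR or DESeq2. By limma 14.4% of all fluid genes were called higher and 13.6% lower. In fluid 0 of the 6 had an unadjusted p below 0.05 (limma), against 3111 higher and 2679 lower of the 13885 genes tested. PSAP, the precursor of the saposins that help hydrolases reach sphingolipids, had 92899 to 186751 normalized reads in OA blood (median 123420) and 49352 to 119703 in healthy blood (median 72139). The change was 0.77 ± 0.20 (SE, log2; adjusted p = 0.0357, limma), with 3 of 6 OA horses above every healthy one. In fluid PSAP had 44001 (OA_1038), 236892 (OA_2615), 107679 (OA_3850), 145416 (OA_9350) and 177950 (OA_9570) normalized reads against 30904 to 211429 in healthy horses (0.62 ± 0.40 SE, log2; adjusted p = 0.254, limma). PPT1, which removes palmitate from proteins, was at 0.56 ± 0.18 in blood (SE, log2; adjusted p = 0.0753, limma), with 6925 to 13309 normalized reads against 3920 to 9198. It was at 0.68 in fluid. NPC2, the lumenal cholesterol carrier, was at 0.78 in fluid and 0.40 in blood.

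LIPA, the acid lipase, had the widest fluid interval of the lipid genes, -0.61 to 2.65 around 1.02, and was at 0.38 in blood. SMPD1, acid sphingomyelinase, was at 0.15 in fluid and 0.12 in blood. ARSA, the sulfatase of sulfatides, was at -0.37 in fluid and 0.05 in blood, and ASAH1, acid ceramidase, was listed at 0 to 27.2 normalized reads in fluid and 0 to 8.45 in blood and was not tested.

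Of the membrane proteins, LAMP2 and SCARB2 rose in blood. LAMP2, a structural glycoprotein of the lysosomal membrane that also serves chaperone-mediated autophagy, had 4202 to 6640 normalized reads in OA blood (median 5705) and 2552 to 5018 in healthy blood (median 3559; 0.57 ± 0.14 SE, log2; adjusted p = 0.0318, limma). SCARB2, an integral protein of the lysosomal membrane, had 1109 to 1809 (median 1424) against 700 to 1310 (median 1015; 0.54 ± 0.13 SE, log2; adjusted p = 0.0317, limma). All 6 membrane proteins were higher in blood with an unadjusted p below 0.05 (limma), as were 1813 of all 13072 genes tested. Their log2 changes lay between 0.40 and 0.57. LAMP1, the partner of LAMP2, was at 0.53 in blood (adjusted p = 0.0633, limma), with 14987 to 26981 normalized reads against 8394 to 17553.

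In fluid LAMP1 had 18076 (OA_1038), 62323 (OA_2615), 31728 (OA_3850), 39137 (OA_9350) and 29381 (OA_9570) normalized reads against 7698 to 40874 (0.89 ± 0.35 SE, log2; adjusted p = 0.0681, limma). OA_2615 alone was above every healthy horse. For LAMP2 the fluid estimate was 0.18 (adjusted p = 0.675, limma). CD68, the macrophage lysosomal glycoprotein, was at 0.93 in fluid (5482 to 44569 against 1524 to 33242 normalized reads) and 0.51 in blood. NPC1, which exports cholesterol, was at 0.05 in fluid and 0.40 in blood, and the calcium channel MCOLN1 at 0.07 and 0.44.

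MITF, a transcription factor of the MiT/TFE family, had the largest log2 change of the set in blood. It had 463 to 958 normalized reads in OA blood (median 598) and 161 to 377 in healthy blood (median 314), with no overlap (1.09 ± 0.20 SE, log2; adjusted p = 0.0164, limma). In fluid it had 2465 (OA_1038), 2253 (OA_2615), 1264 (OA_3850), 1213 (OA_9350) and 2184 (OA_9570) normalized reads against 68.5 to 2797 (median 848). All 5 OA fluids were above the healthy median and within the healthy range, and the change of 1.22 ± 0.59 (SE, log2) had an adjusted p of 0.128 (limma). Non-overlapping groups in blood were found for 3 of 37 genes of the set (HGSNAT, ARSB and MITF), against 0.612% of all genes. MITF lies on chromosome 16, 21548000 to 21757592 (EquCab3.0, protein coding; ENSECAG00000005360).

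TFEB, the family member best known for inducing lysosomal genes, was not called in either tissue. In fluid it had 2356 (OA_1038), 2926 (OA_2615), 3433 (OA_3850), 3916 (OA_9350) and 8501 (OA_9570) normalized reads against 1332 to 6044 (0.50 ± 0.33 SE, log2; adjusted p = 0.268, limma). In blood it had 4540 to 6985 normalized reads against 3901 to 11712 (-0.06, 95% interval -0.44 to 0.33), so that OA values lay inside the healthy range. GRN, a secreted and lysosomal glycoprotein that supports hydrolase function, had 7396 (OA_1038), 52176 (OA_2615), 22102 (OA_3850), 32258 (OA_9350) and 28685 (OA_9570) normalized reads in OA fluid against 6378 to 50297 (0.56 ± 0.44 SE, log2; adjusted p = 0.351, limma). In blood GRN had 10923 to 19627 against 8629 to 17666 (0.33 ± 0.16 SE, log2; adjusted p = 0.207, limma). The annotated span of GRN overlaps 4 other genes of the table, and 14 of the 39 genes of the set have such an overlap; how reads in shared stretches and of either strand were counted is not given in the sources used here.

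Horses differed from each other across most of the set at once, as the map of each gene by horse shows. In OA fluid, OA_1038 was the lowest of the 5 in 33 of 38 genes, with a median deviation of -0.85 (log2) from the healthy mean, and OA_2615 was the highest in 30, with a median deviation of 1.36. HGSNAT, ARSB and MITF were among the exceptions: OA_1038 was above the healthy median in 5 of 38 genes, and its 2728 normalized reads of HGSNAT exceeded all healthy fluids. Among healthy fluids ORC_205 was highest in 24 genes and ORC_196 lowest in 21. In blood OA_9570 was the highest OA horse in 17 of 37 genes and OA_4110 the lowest in 14; ORC_197 was the highest healthy horse in 18 and ORC_209 the lowest in 20. The median SD of log2 values among healthy horses was 0.64 for the set and 0.54 for all genes in fluid, but 0.30 and 0.37 in blood.

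**Figure D3:**
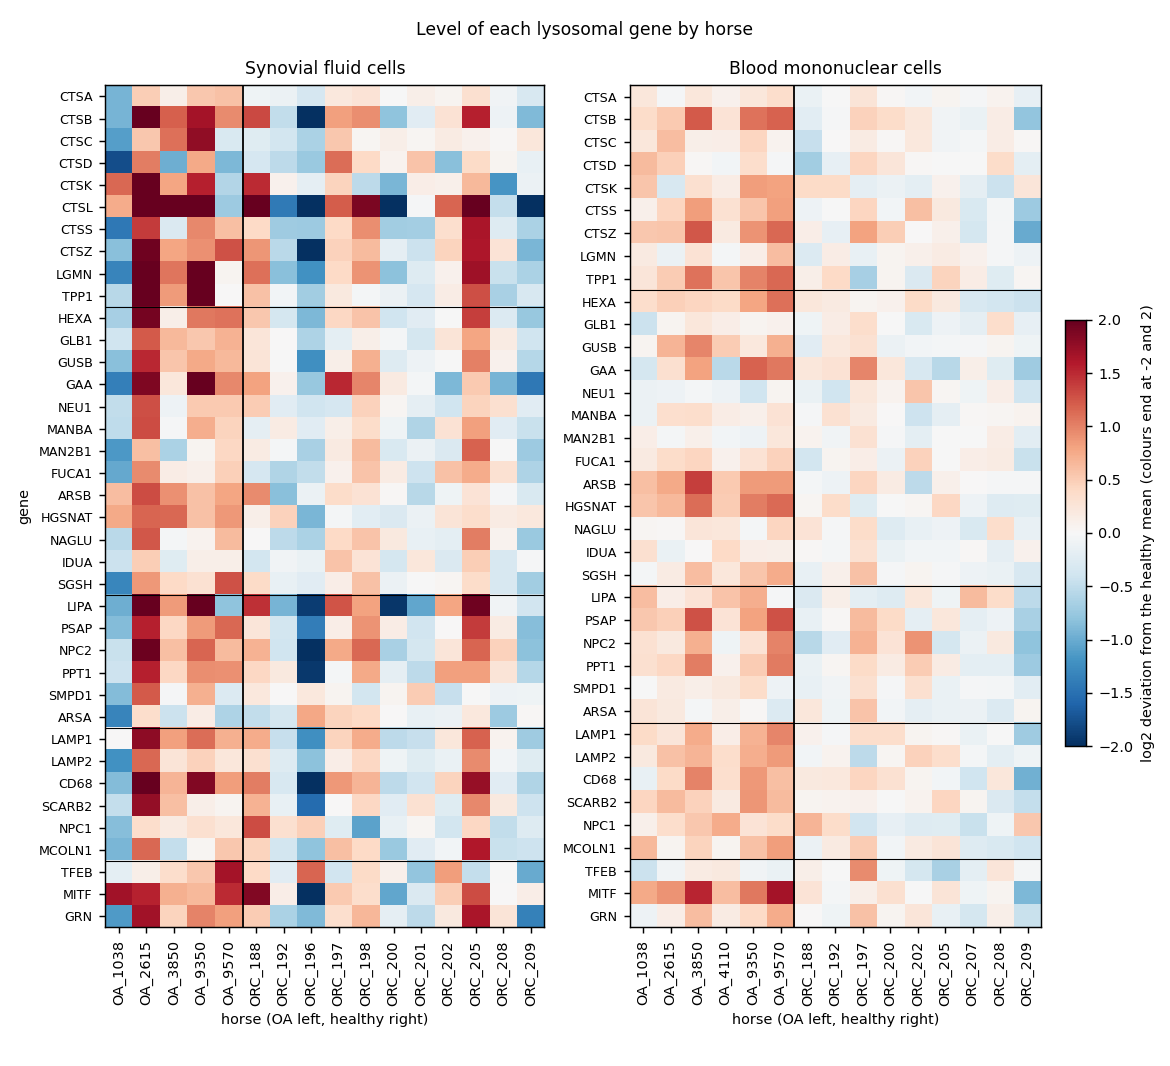
Log2 deviation of each tested lysosomal gene from its healthy mean in every horse, fluid left and blood right, OA horses left of the vertical line; horizontal lines separate proteases, sugar enzymes, lipid genes, membrane proteins and regulators. In fluid the OA_1038 column is blue for most genes and the OA_2615 column red; in blood OA columns are mostly pale red.

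Within each group of fluids, macrophage markers summed lowest and highest in the same horses as the lysosomal genes. Between these ends the order differed. OA_9570 had a lysosomal sum of 699373 normalized reads and a macrophage sum of 157604, and OA_3850 had 589704 and 241987. Of the 12 tissue macrophage markers in fluid 1 (8.3%) was called higher, CD163, against 14.4% of all genes. These 12 markers summed to 55285 normalized reads in OA_1038, the lowest OA fluid, and 546020 in OA_2615, the highest. In healthy fluid the ends were 20804 in ORC_196 and 573633 in ORC_205. The same horses were at the ends of the lysosomal sum of their group. The lysosomal set made up 0.659% to 3.97% of reads in OA fluid (median 2.02%) and 0.697% to 3.25% in healthy fluid (median 1.40%). Of 6 monocyte markers tested 1 (16.7%) was called higher, VCAN, near the 14.4% of all genes. The sum of the 7 monocyte markers ranged from 18904 (OA_1038) to 125633 (OA_9570) in OA, with 65921 in OA_2615. In healthy fluid it ranged from 14002 (ORC_196) to 77763 (ORC_205). The 4 neutrophil markers had 0 calls by limma, 2 with an unadjusted p below 0.05. They summed to 53885 in OA_9570 and 7840 in OA_2615, and the highest healthy sum, 53987, was in ORC_196, the healthy fluid lowest in the lysosomal sum. None of these markers was at 0 in every library of a group. The part of these cells in the changes of the set was not tested.

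In blood 3 of 6 monocyte markers (50%) were called higher (VCAN, CCR2 and S100A12), against 3.2% of all genes. The list summed to 90852 to 231400 normalized reads in OA against 41955 to 117484 in healthy horses. Of the tissue macrophage markers 2 of 11 (18.2%) were called higher, MERTK among them, also against 3.2% of all genes. Their sums were 16096 to 53842 against 9639 to 27129. The 4 neutrophil markers had 0 calls by limma, 3 with an unadjusted p below 0.05, and sums of 30148 to 64500 against 7053 to 41660. The lysosomal set made up 1.19% to 1.76% of reads in OA blood (median 1.37%) and 0.759% to 1.20% in healthy blood (median 0.966%). The part of monocytes, macrophages and neutrophils in the blood calls was not tested.

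**Figure D4:**
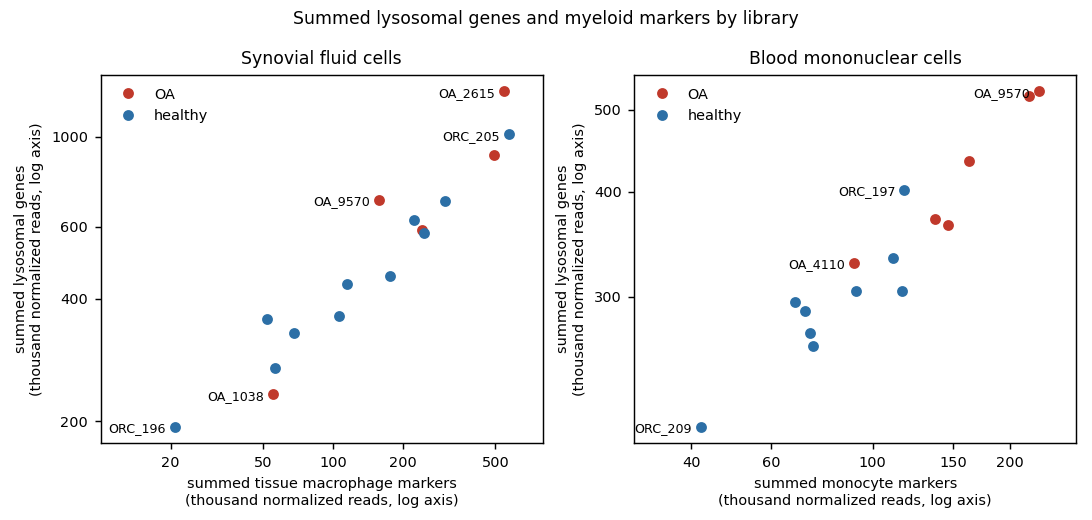
Summed normalized reads of the 39 lysosomal genes against summed tissue macrophage markers in fluid (left) and monocyte markers in blood (right), 1 point per library, both axes logarithmic, red for OA and blue for healthy. In fluid OA_1038 and ORC_196 lie at the low end and OA_2615 and ORC_205 at the high end of both sums; in blood OA_9570 is highest and ORC_209 lowest in both.

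Individual libraries decided many of the calls, shown in the plot of calls without each horse. In fluid the count of genes called higher was 8 without OA_1038 (TPP1, HEXA, GLB1, GUSB, SGSH and LAMP1 added), 5 without ORC_205, 4 without OA_9570 and 2 or 3 without any other horse. Of all fluid genes, 10.3% were called higher without OA_1038, 15.2% without ORC_205 and 18.5% without OA_9570. In blood it fell from 10 to 2 without OA_3850 or OA_9570, to 3 without OA_9350 or ORC_208, to 4 without ORC_207 and to 6 without ORC_200, and was 7 to 13 otherwise. Over the whole blood table, calls of higher genes fell from 418 to between 14 and 17 when OA_3850, OA_9350 or OA_9570 was left out. MITF lost its blood call without OA_3850 (adjusted p = 0.0571, limma) or OA_9570 (adjusted p = 0.0552, limma), and CTSB, TPP1, GUSB, HEXA, PSAP, LAMP2 and SCARB2 each lost theirs when OA_3850, OA_9350, OA_9570 or ORC_208 was left out, while their estimates stayed above 0. With limma weights per library, 12 genes were called higher in fluid and 22 in blood, against 26.3% and 10.5% of all genes.

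**Figure D5:**
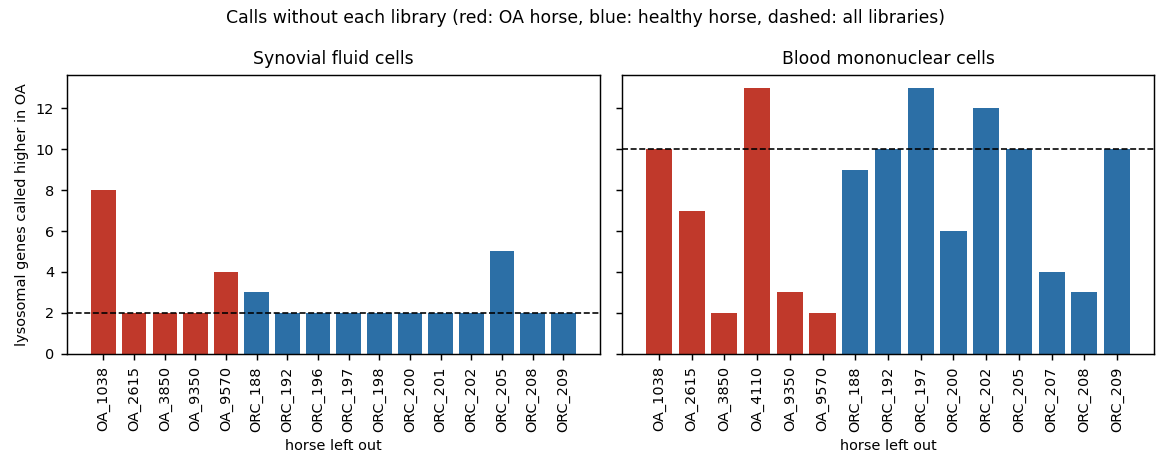
Number of lysosomal genes called higher in OA (limma, adjusted p below 0.05) when the library of each horse in turn is left out, in fluid (left) and blood (right); the dashed line is the count with all libraries, 2 and 10. Fluid reaches 8 without OA_1038, and blood falls to 2 without OA_3850 or OA_9570.

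Whether OA acted differently on the set in fluid and in blood was tested directly, as the difference of the log2 changes. None of 37 genes was called by limma (0 with an unadjusted p below 0.05), against 22.3% of all genes in either direction; the fit on within-horse differences also called 0. GLB1 had the smallest p, with a change 0.52 higher in fluid (95% interval -0.01 to 1.05, adjusted p = 0.145, limma), and it passed without the fluid of OA_1038 (0.76, adjusted p = 0.0327, limma). NEU1 followed at 0.47 (adjusted p = 0.226, limma) and ARSA at -0.42 (adjusted p = 0.285, limma). For HGSNAT the difference was 0.07, with an interval of -0.44 to 0.57, and for ARSB 0.01, with an interval of -0.55 to 0.57, so differences of up to about 0.57 remain possible. Both genes make up the 2 of 37 (5.41%) that rose in both tissues, against 126 of 12733 genes (0.99%) overall. Because 5 OA and 8 healthy horses gave both samples, the tissues are not independent observations.

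The machinery around the enzymes was read from lists of other lysosomal genes. In fluid 7 of 17 proton pump subunits (41.2%) rose, against 14.4% of all genes, and none fell, with a median of 0.60: ATP6V0D1 by 0.99 (7170 ± 1495 against 3663 ± 957 normalized reads, SD, n = 5 and 11; adjusted p = 0.00279, limma), ATP6V1G1 by 0.76 (adjusted p = 0.00963, limma) and ATP6V1H by 0.64 (adjusted p = 0.0113, limma). In blood 2 of 16 (12.5%) rose, against 3.2% of all genes: ATP6V1A (0.94) and ATP6AP2 (0.47), each with an adjusted p of 0.0465 (limma). The difference between tissues was called for 2 of 16, against 22.3% of all genes in either direction: ATP6V1D (0.82, adjusted p = 0.0256, limma) and ATP6V1H (0.60, adjusted p = 0.0348, limma), both with the larger change in fluid; neither call held with equal library totals (adjusted p = 0.0514 and 0.135, limma). Subunits that lost their fluid call in some alternative fit were ATP6V1A, ATP6V1B2, ATP6V1C1 and ATP6V1H, whereas ATP6V0D1, ATP6V1D and ATP6V1G1 kept theirs in all 24.

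IGF2R, the large mannose 6-phosphate receptor that sorts hydrolases to lysosomes, moved in opposite directions in the tissues. It fell in OA fluid (2740 ± 1329 against 4613 ± 1202 normalized reads, SD, n = 5 and 11; log2 change -0.81, adjusted p = 0.0203, limma) and rose in OA blood (9958 ± 2198 against 5714 ± 1303, n = 6 and 9; 0.80, adjusted p = 0.0249, limma). The difference was -1.62 ± 0.33 (SE, log2; adjusted p = 0.00149, limma) and stayed past the threshold in all 37 alternative fits. The fluid call was lost without OA_2615 (adjusted p = 0.0756, limma) or OA_3850 (0.0582), and the blood call without OA_3850, OA_9350 or OA_9570 (0.0723 to 0.0795). Of the 16 sorting genes, 2 (12.5%, against 14.4% of all genes) rose in fluid (AP3B1 by 0.46 and AP1B1 by 0.72, both subunits of adaptor complexes) and 1 fell, and in blood IGF2R was the 1 gene called (6.25%, against 3.2% of all genes called higher).

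Among the other hydrolases and cofactors 4 of 25 (16%) rose in fluid, near the 14.4% of all genes, and 1 fell. The sialic acid esterase SIAE rose by 0.82 (adjusted p = 0.0301, limma) and the cathepsin CTSF by 1.58 (adjusted p = 0.0386, limma). CTSW, a cathepsin of cytotoxic lymphocytes, fell by 2.34 on the log2 scale (adjusted p = 0.00142, limma). It is counted in the cytotoxic and NK cell list as well. Of that list 10 of 11 markers were called lower, CTSW included, against 13.6% of all genes. The part of that shift in the CTSW change was not tested. In blood 4 of 24 hydrolases and cofactors (16.7%) rose, against 3.2% of all genes. Among them were the phospholipase-like PLBD1 (0.99), the dipeptidyl peptidase DPP7 (0.59) and IDS (0.92). IDS, the sulfatase that opens heparan and dermatan sulfate breakdown, was called in both tissues (0.96 in fluid, adjusted p = 0.0442, limma), but its fluid call was lost in 15 of 24 alternative fits, edgeR and DESeq2 among them.

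Of 20 other lysosomal membrane proteins, 1 rose and 3 fell in fluid, against 14.4% of all genes called higher and 13.6% called lower. LAPTM4B rose by 1.81 (1267 ± 532 against 365 ± 162 normalized reads, SD, n = 5 and 11; adjusted p = 0.00164, limma), while PIP4P1 was at -0.81 (adjusted p = 0.00529, limma) and the transporter ABCA2 at -1.33 (adjusted p = 0.00726, limma), both called lower. LAPTM5, a lysosomal protein of haematopoietic cells, was the third called lower, at -0.73 (adjusted p = 0.0118, limma). In blood 2 of 20 (10%) rose, against 3.2% of all genes: OSTM1 (0.49) and TMEM192 (0.48). The difference between tissues was called for 5 of the 20, a share near the 22.3% of all genes, among them LAPTM4B (1.49, adjusted p = 0.0113, limma) and ABCA2 (-1.24, adjusted p = 0.0206, limma); the latter was lost without the fluid of OA_2615 (adjusted p = 0.0871, limma). With the replicate block PIP4P1 and LAPTM5 lost that call (adjusted p = 0.051 and 0.0747, limma). Over the 37 alternative fits of the difference, LAPTM5 lost it in 20 and PIP4P1 in 3.

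In the list of MiT/TFE relatives and mTORC1 components at the lysosome, 6 of 16 (37.5%) rose in fluid, against 14.4% of all genes, and none fell. LAMTOR2, LAMTOR4 and LAMTOR3, subunits of the Ragulator scaffold that anchors mTORC1, rose by 1.09, 0.85 and 0.84 (adjusted p = 0.0039, 0.0149 and 0.0127, limma), and LAMTOR1, RRAGA and TFEC were the others. In blood 2 of 16 (12.5%) rose, against 3.2% of all genes: TFEC, a MiT/TFE member, rose by 1.06 (513 ± 216 against 235 ± 74 normalized reads, SD, n = 6 and 9; adjusted p = 0.0379, limma) and FLCN, which regulates Rag GTPases, by 0.51 (adjusted p = 0.0404, limma). LAMTOR2 differed between tissues by 1.27 (adjusted p = 0.00721, limma), a call that held in all 37 alternative fits, and its change in blood was -0.19. Of the cathepsin and legumain inhibitors tested, 1 of 6 rose in fluid (CSTA, 1.35; 16.7%, against 14.4% of all genes) and 2 fell (CST7 and SERPINB6; 13.6% of all genes), and in blood SERPINB6 fell by 0.72 on the log2 scale (adjusted p = 0.0317, limma). CST7 is known from cytotoxic lymphocytes, whose markers were lower in OA fluid; the part of that shift in its change was not tested.

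Over these lists 21 genes rose in fluid, and 13 of them lost the call with equal library totals, which moved the median of all fluid genes from 0.08 to -0.12: AP1B1, AP3B1, ATP6V1A, ATP6V1B2, ATP6V1C1, ATP6V1H, CSTA, CTSF, IDS, LAMTOR1, RRAGA, SIAE and TFEC. All 21 estimates stayed above 0 under that scaling. Over the whole fluid table it lowered the count of genes called higher from 2006 (14.4%) to 1312 (9.4%). In blood each gene of these lists named as called, IGF2R and SERPINB6 included, lost its call without OA_3850, OA_9350 or OA_9570.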

How the data were processed

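Poly(A) RNA of fluid cells and PBMC was sequenced after hyaluronidase digestion of the fluid and a TruSeq library preparation, per the labels' protocols. The authors deposited 2 tables, 1 for each tissue, whose entries are a normalized signal: counts of reads divided by a scale factor for the library (median of ratios, as DESeq in the submitters' processing notes and the values themselves show). The submitters' processing notes name Partek, cutadapt, STAR 2.7.3, HTSeq, DESeq and EquCab3.0; no settings are known from the sources used. Low values are whole multiples of what 1 read is worth, which gave back depth: 99.85% to 99.98% of a library's values came out whole within 0.1 read. Between any 2 libraries of a group the counts differed by far more than sampling noise.

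Genes averaging 10 or more normalized reads in a tissue (13885 in fluid, 13072 in blood) were kept, and log2(value + 1) was fitted over the whole table with limma 3.58.1 in R 4.3.3 (trend, robust), two-sided, with Benjamini-Hochberg adjustment over all genes tested and a threshold of 0.05. A fold change on this scale understates the change of low genes. Fluid and blood effects were contrasted in a model of 4 group means, weighted by tissue, on 12733 genes. Alternatives were edgeR 4.0.16 (quasi-likelihood) and DESeq2 1.42.0 on recovered reads, a pseudocount of 5, no filter, a mean of at least 50, equal library totals, weights per library, and leaving out each library. The fit was tested on simulated data first. Horse numbers pair the tissues: in 13 of 13 horses the 2 samples of an animal deviated from their groups together (correlation 0.123 to 0.391, all over 0.1), so within-horse differences (5 OA, 8 healthy) served as the replicate block.

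The genes of the set and all lists were chosen with earlier results of these data known, so no list has a test. For each role and tissue, values are given for up to 3 called genes of smallest adjusted p and the uncalled gene of highest mean, always for TFEB, MITF and GRN, for the 3 smallest p of the tissue difference, and for up to 3 called genes of each other list; all other genes named with values were added after their values were seen. No sequence is printed, since no sequence table of this genome was used. Each library is a separate animal within a tissue. Some results are not reported here.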

Additional observations from a re-analysis of the deposited data

Results flagged for a closer look

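Of 112 groups of 4 to 10 horses examined, 6 held a horse whose log2 value lay far from the nearest other of its group relative to the group's range; chance flags about 1 in 20. In OA fluid, NPC1 was 1201 normalized reads in OA_1038 against 2455 in the next lowest horse. In OA blood, GLB1 was 1684 in OA_1038 against 2338. Among healthy blood samples, CTSC was 4423 in ORC_188 against 5785 in the next lowest horse, and SGSH was 1257 in ORC_197 against 900 in the next highest. ORC_209 was the lowest healthy blood sample for LAMP1 at 8394 (next 12526) and for MITF at 161 (next 284). OA_1038 and ORC_209 were each flagged for 2 genes, and were also among the horses lowest across the set. Without ORC_209 the number of genes called higher in blood was again 10.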

How the results depend on the processing

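Direction was kept by all called genes under every alternative run. The count of genes called higher in fluid, 2, was 4 with DESeq2, 12 with weights per library and 4 without OA_9570 and ORC_202 together (an alternative chosen after seeing the data), and 2 to 8 with each library left out. Of all fluid genes, DESeq2 called 18.1% higher, weights per library 26.3% and the fit without that pair 20.1%. In blood, 10 became 22 with weights per library, where 10.5% of all genes were called higher, and ranged from 2 to 13 with a library left out. The tissue difference gave 0 calls except 1 (GLB1) without the fluid of OA_1038 (range 0 to 1); the replicate block also gave 0 and changed no call of the set. With equal library totals the median of all fluid genes moved from 0.08 to -0.12 and estimates near 0 turned: CTSA -0.043, FUCA1 -0.074, IDUA -0.19, SMPD1 -0.049, LAMP2 -0.023, NPC1 -0.15 and MCOLN1 -0.14 in fluid, and the tissue differences of ARSB (-0.21) and HGSNAT (-0.15). IDUA was also at -0.052 (edgeR), -0.064 (weights) and -0.041 (without that pair of horses), NPC1 at -0.079 (edgeR), -0.021 (DESeq2) and -0.034 (without the pair), MCOLN1 at -0.028 (weights) and -0.059 (without the pair), and blood TFEB at 0.10 (weights). With the replicate block the tissue difference was -0.10 for ARSB and -0.14 for HGSNAT. Leaving out a library turned further small estimates, with ranges in fluid of -0.035 to 0.67 (CTSS), -0.33 to 0.11 (MAN2B1), -0.076 to 0.42 (FUCA1), -0.11 to 0.12 (IDUA), -0.12 to 0.41 (SMPD1), -0.065 to 0.53 (LAMP2), -0.060 to 0.27 (NPC1) and -0.21 to 0.31 (MCOLN1), in blood of -0.019 to 0.11 (GLB1) and -0.14 to 0.062 (TFEB), and for the difference of -0.10 to 0.12 (ARSB) and -0.022 to 0.15 (HGSNAT). The cause was not tested. The number of horses limits the precision, and genes with a mean below 10 normalized reads over the libraries fitted were not tested.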
